A study of Homo sapiens with 38 samples.

Results

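The 153 genes described here are those that lay well above DMSO after both 6 h and 14 days with histone deacetylase (HDAC) inhibitors in diffuse large B-cell lymphoma (DLBCL), a cancer of mature B cells. The RNA sequencing libraries came from the established human cell lines OCILY1, PFEIFFER, SUDHL4, SUDHL6, TOLEDO and WSUDLCL2, treated with pracinostat, vorinostat or the solvent DMSO. At 6 h there were 6 libraries with pracinostat, 5 with vorinostat (none of SUDHL6) and 6 with DMSO. At 14 days the 5 lines other than SUDHL6 each had 1 library with pracinostat, 1 with vorinostat and a pair with DMSO, of which the titles call the first DMSOP and the other DMSOV. At 6 h the titles give DMSO alone. Headers of the authors' normalized values name DMSOP for TOLEDO and PFEIFFER, and DMSOV for OCILY1, SUDHL4, SUDHL6 and WSUDLCL2. Both drugs of a line were set against that 1 library at 6 h. Each library stands for 1 line, so n counts lines. The sources used here give neither the drug doses nor whether libraries derive from separate cultures, and p-values below measure only the spread between these libraries.

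The genes were chosen by their measured values, from raw counts put on a log2 scale per mega counts of the library (log2 CPM). For each gene D6 is the mean over 5 lines and both drugs of the drug minus DMSO difference at 6 h, and D14 is the same at 14 days against the mean of DMSOP and DMSOV. Genes with a mean of at least 2 log2 CPM over the 37 libraries and with D6 and D14 both at or above the limit, a 2.38-fold higher level on this scale, were kept. Of 18011 genes, 10187 reached that level and 153 were kept, after CDKN1A, the cyclin-dependent kinase inhibitor p21, had been set aside with a D6 of 2.08 and a D14 of 2.39. The rule also sets aside HDAC11 and TUBB2B, whose mean levels of 1.09 and 1.88 log2 CPM were below the minimum in any case. The drug minus DMSO differences in these 5 lines are therefore given as a description, with no test.

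Histone deacetylases take acetyl groups off lysines of histone tails and of other proteins. Acetylated histones near a promoter go with open chromatin and active transcription, and HDACs sit in repressor complexes that keep the promoters of some genes silent in a given cell type. Pracinostat and vorinostat are hydroxamic acids that bind the zinc ion in the active site of these enzymes, and both block several members of the family.

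Promoter sequences from RefSeq (GRCh38.p14) are printed for a few leading genes, picked by hand, and do not stand for the others. The windows run from 250 bases before the annotated start to 50 after it, 5′ to 3′ on the gene's strand, for DACT3 (chr19:46661133-46661432, minus strand), CLIP2 (chr7:74289157-74289456, plus strand), KDM5B (chr1:202808372-202808671, minus strand) and CTTNBP2NL (chr1:112395964-112396263, plus strand), all among the 15 genes with the largest smaller one of D6 and D14. Capitals mark GGGCGG, the core letters of a GC box, searched on both strands with overlaps counted, so that CCGCCC marks a match on the other strand.
DACT3: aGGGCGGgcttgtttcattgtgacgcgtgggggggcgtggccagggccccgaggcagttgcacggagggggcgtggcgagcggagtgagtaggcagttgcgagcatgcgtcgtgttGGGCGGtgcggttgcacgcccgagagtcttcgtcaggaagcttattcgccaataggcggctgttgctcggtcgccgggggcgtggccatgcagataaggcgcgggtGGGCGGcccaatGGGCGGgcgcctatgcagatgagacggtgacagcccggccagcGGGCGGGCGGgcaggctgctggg
CLIP2: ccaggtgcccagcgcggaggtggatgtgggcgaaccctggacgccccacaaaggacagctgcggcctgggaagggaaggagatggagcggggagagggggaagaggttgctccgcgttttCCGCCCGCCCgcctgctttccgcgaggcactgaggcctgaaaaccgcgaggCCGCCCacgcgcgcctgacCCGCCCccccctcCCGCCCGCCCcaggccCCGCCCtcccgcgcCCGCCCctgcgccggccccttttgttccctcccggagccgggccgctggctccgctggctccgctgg
KDM5B: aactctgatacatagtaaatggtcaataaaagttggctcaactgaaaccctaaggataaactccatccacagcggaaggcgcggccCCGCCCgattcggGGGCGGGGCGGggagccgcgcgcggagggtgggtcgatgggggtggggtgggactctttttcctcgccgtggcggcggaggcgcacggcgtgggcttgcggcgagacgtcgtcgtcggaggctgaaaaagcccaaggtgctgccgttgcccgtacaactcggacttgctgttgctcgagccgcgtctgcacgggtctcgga
CTTNBP2NL: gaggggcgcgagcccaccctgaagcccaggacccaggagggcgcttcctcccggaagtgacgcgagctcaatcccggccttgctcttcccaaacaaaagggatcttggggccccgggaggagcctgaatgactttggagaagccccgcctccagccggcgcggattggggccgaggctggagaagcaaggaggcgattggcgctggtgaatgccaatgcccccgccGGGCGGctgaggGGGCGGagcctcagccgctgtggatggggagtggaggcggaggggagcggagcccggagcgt
The window of DACT3 held 6 matches and 33 CpG dinucleotides, that of CLIP2 8 matches and 33 CpG, that of KDM5B 3 matches and 34 CpG, and that of CTTNBP2NL 2 matches and 24 CpG. GC content was 69.7% in DACT3, 75.3% in CLIP2, 63.7% in KDM5B and 69.3% in CTTNBP2NL. GGGCGG is common, since 71.7% of the 8141 promoters found for genes at the same level hold it. Among the rest of the 15 leading genes, SERPINB6, GAL3ST4, ENAH, GABBR1 and KIAA0513 held it as well. SPECC1, MIAT and SERPINI1 had 0 matches, and no promoter was found for SLFN5, ZNF385A and TBC1D16. MT2A, a metallothionein that binds zinc and copper, is shown for a promoter that also holds a TATA box sequence (chr16:56608334-56608633, plus strand). Capitals mark TATAAA and TGCGCNC, a form of the core of the metal response element. Other forms of this core were not searched, so any match to them stays in lower case and is not counted. The window of MT2A also held 2 GGGCGG matches, left in lower case, and 37 CpG, with a GC content of 72.0%.
MT2A: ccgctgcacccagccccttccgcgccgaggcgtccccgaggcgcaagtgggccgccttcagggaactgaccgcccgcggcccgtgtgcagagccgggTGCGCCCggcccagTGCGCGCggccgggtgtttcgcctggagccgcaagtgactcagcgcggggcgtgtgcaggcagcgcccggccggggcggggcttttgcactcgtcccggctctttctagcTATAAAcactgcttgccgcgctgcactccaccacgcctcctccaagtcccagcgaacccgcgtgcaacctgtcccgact
TATAAA occurred once in this window and is held by 4.86% of the 8141 promoters, while TGCGCNC occurred 2 times and is held by 32.3%. A promoter was found for 114 of the 153 genes, or 74.5%, which is under 80%, so no comparison of promoter composition between these genes and the rest was made.

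Over the 153 genes the median was 1.76 for D6 and 1.70 for D14 on the log2 CPM scale, against 0.02 and -0.06 over the 10187 genes. D6 reached the limit in 3.94% of those genes, D14 in 3.83%, and both did in 1.51%. By the mirrored rule 8 genes were lower than DMSO at both times, among them JADE1, TERT, ECPAS, E2F8, TLCD3A, LIG3 and SUV39H1. Just inside the limit were SAMSN1, SLC16A3 and BMF, the smaller of whose differences passed it by 0.00022, 0.0042 and 0.0064 log2 units. Just outside were SPINT1, USP35 and CLTCL1, which missed it by 0.0012, 0.0095 and 0.02 log2 units. In bulk RNA, more cells with a transcript and more transcript per cell cannot be told apart. Protein-coding genes made up 148 of the 153 and non-coding transcripts the other 5.

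**Figure D1:**
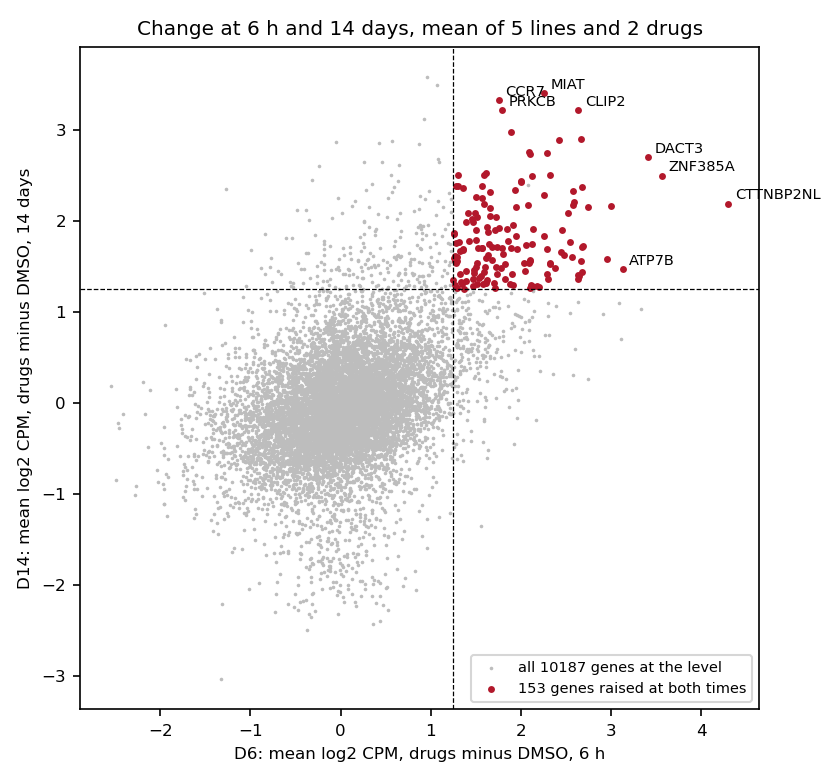
Each point is a gene, with D6 on the x axis and D14 on the y axis, both as log2 CPM of the drugs minus DMSO averaged over 5 lines and 2 drugs. Dashed lines mark the 2.38-fold limit, red points are the 153 genes and grey points all 10187 genes at the level, with CDKN1A left grey in the upper right; the red points run to a D6 of 4.30 for CTTNBP2NL and a D14 of 3.41 for MIAT.

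With DMSO these genes were weakly expressed. Their median level per kilobase of exon over the DMSO libraries was 1.26 CPM, against 7.87 CPM over the 10187 genes, so that low counts lie behind many of the differences. The rule takes genes above DMSO, and its minimum level also counts the drug libraries, so this low level is fixed in part. Where a library had no count of a gene, a level of up to 3 counts remains possible, and this floor was 0.336 CPM in the deepest library and 0.941 CPM in the shallowest, counting error only. The 6 h DMSO library of SUDHL4 was among the shallowest, at 3.29 M (mega counts), and had 17 of the 153 genes at 0, more than any other library; without that line the rule gave 166 genes, 132 of them among the 153. The set took 0.431 to 0.558% of all counts with pracinostat and 0.385 to 0.630% with vorinostat at 14 days, against 0.153 to 0.250% in DMSOP and 0.138 to 0.246% in DMSOV. At 6 h it took 0.330 to 0.588% with pracinostat and 0.406 to 0.588% with vorinostat, against 0.120 to 0.228% with DMSO.

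Some facts of all libraries touch these values. Library totals were 3.19 M at the lowest and 8.92 M at the highest. Mitochondrially encoded genes took 11.1 to 17.0% of counts with pracinostat and 10.5 to 17.5% with vorinostat at 14 days, against 6.45 to 11.0% in DMSOP and 6.76 to 12.0% in DMSOV. The vorinostat range overlapped both DMSO ranges and the pracinostat range that of DMSOV, while each line was above its own DMSO with each drug. At 6 h these genes took 5.30 to 10.2% with pracinostat and 5.43 to 11.8% with vorinostat, against 6.17 to 10.9% with DMSO. Without those genes the rule gave 178 genes, 152 of them among the 153. The 10 B-cell identity markers, such as PAX5 and MS4A1, summed to 3768 CPM or more in each library, and none was a member. Their summed level had a median of 5479 CPM with pracinostat and 6012 CPM with vorinostat at 6 h, against 9932 CPM with DMSO, and of 12101 CPM with pracinostat and 10088 CPM with vorinostat at 14 days, against 7408 CPM in DMSOP and 7334 CPM in DMSOV. Of 12 myeloid markers 4 had a row (CSF1R, FCN1, ITGAM and CD33), and they summed to 0.780 to 19.5 CPM with pracinostat and 1.08 to 37.1 CPM with vorinostat at 14 days, against at most 1.57 CPM in DMSOP and 1.67 CPM in DMSOV. At 6 h they had 0.212 to 2.17 CPM with pracinostat and 0.440 to 3.75 CPM with vorinostat, against 0.134 to 2.53 CPM with DMSO. The 8 of 12 T and NK cell markers with a row had a median sum of 57.0 CPM (2.96 to 675) with pracinostat and 62.0 CPM (2.53 to 684) with vorinostat at 14 days, against 29.2 CPM (1.66 to 1122) in DMSOP and 31.7 CPM (1.80 to 1158) in DMSOV. At 6 h it was 33.8 CPM (2.42 to 519) with pracinostat and 30.3 CPM (2.79 to 508) with vorinostat, against 33.1 CPM (1.23 to 1221) with DMSO. The 8 of 12 epithelial and fibroblast markers with a row had 22.5 CPM (14.5 to 184) with pracinostat and 36.9 CPM (8.67 to 157) with vorinostat at 14 days, against 19.9 CPM (0.498 to 295) in DMSOP and 17.8 CPM (1.10 to 292) in DMSOV. At 6 h they had 13.9 CPM (2.12 to 244) with pracinostat and 18.6 CPM (2.06 to 248) with vorinostat, against 7.04 CPM (1.47 to 265) with DMSO. No gene of these 3 lists was a member. The part of these shares and markers in the results was not tested.

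Values of single libraries are CPM, always in the order OCILY1, PFEIFFER, SUDHL4, TOLEDO and WSUDLCL2, and SDs are over these 5 lines. DACT3, an adaptor of the Dishevelled proteins that dampens Wnt signalling (ENSG00000197380, chromosome 19, 46647612 to 46661138, minus strand, in GENCODE 29 on GRCh38), led the list by the smaller one of D6 and D14. At 6 h DACT3 was at 25.5, 21.2, 18.3, 22.4 and 14.9 CPM with pracinostat and at 37.0, 24.3, 26.6, 26.8 and 26.7 CPM with vorinostat, against 2.54, 9.60, 0.634, 1.07 and 1.26 CPM with DMSO. At 14 days DACT3 was at 17.5, 19.9, 10.5, 7.02 and 10.3 CPM with pracinostat and at 19.2, 27.6, 19.1, 18.1 and 30.7 CPM with vorinostat, against 8.46, 4.54, 3.59, 0.968 and 1.51 CPM in DMSOP and 5.18, 4.04, 1.14, 0.980 and 0.436 CPM in DMSOV. In each line both drug libraries were above the DMSO library or libraries of the same time, and at 6 h no drug library overlapped the DMSO range. Its D6 was 3.42 ± 1.30 and its D14 2.71 ± 0.94 (SD, n = 5).

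**Figure D2:**
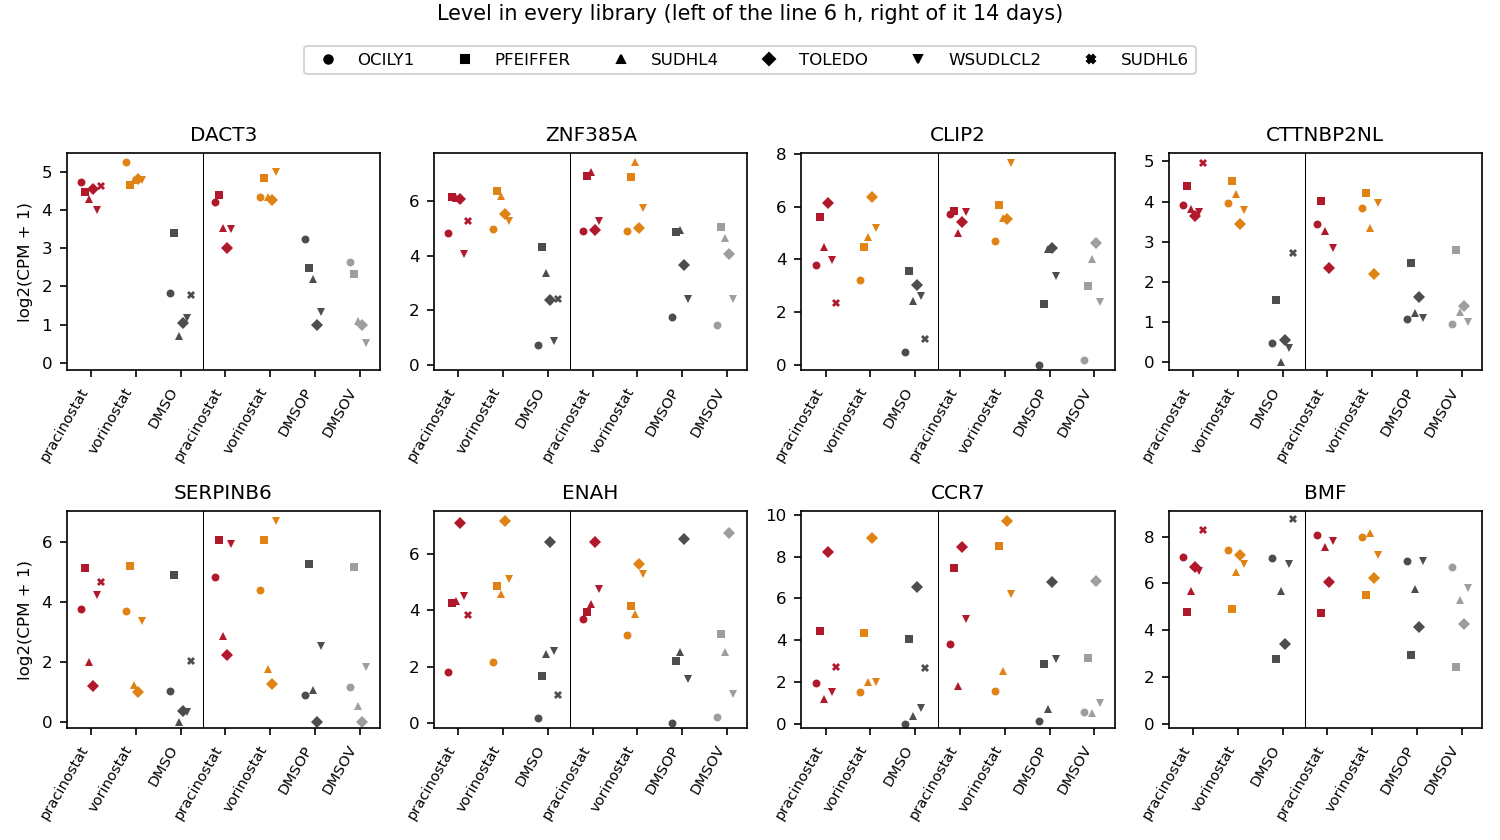
Level of 8 genes in every library as log2(CPM + 1), with drugs left of DMSO in each panel, 6 h left of the vertical line and 14 days right of it, and 1 symbol per cell line. In DACT3 and CTTNBP2NL the 6 h drug points lie above all 6 h DMSO points, while ENAH and CCR7 keep TOLEDO on top in DMSO as well as with the drugs.

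Several leading genes act on the cytoskeleton. CTTNBP2NL, which binds cortactin and the phosphatase complex STRIPAK (chromosome 1, 112396181 to 112463456, plus strand), had the largest D6 of the set, 4.30 ± 0.87, with a D14 of 2.19 ± 0.91 (SD, n = 5). At 6 h CTTNBP2NL was at 14.1, 20.1, 13.0, 11.5 and 12.3 CPM with pracinostat and at 14.7, 22.0, 17.1, 9.97 and 12.8 CPM with vorinostat, against 0.401, 1.92, 0, 0.460 and 0.279 CPM with DMSO. At 14 days CTTNBP2NL was at 9.86, 15.3, 8.60, 4.06 and 6.24 CPM with pracinostat and at 13.3, 17.5, 9.22, 3.61 and 14.7 CPM with vorinostat, against 1.12, 4.54, 1.35, 2.07 and 1.16 CPM in DMSOP and 0.942, 5.99, 1.37, 1.63 and 1.02 CPM in DMSOV. Among these 5 lines the lowest drug library at 6 h had 9.97 CPM and the highest DMSO library 1.92 CPM. SUDHL6, not among them, had 51 counts with DMSO and 184 counts with pracinostat at 6 h. At 14 days the TOLEDO drug libraries were below the PFEIFFER DMSO libraries, though above their own.
CLIP2, a linker of microtubule ends (chromosome 7, 74289475 to 74405943, plus strand), had a D6 of 2.64 ± 0.96 and a D14 of 3.22 ± 2.30 (SD, n = 5). At 6 h CLIP2 was at 13.0, 48.2, 21.0, 69.4 and 14.6 CPM with pracinostat and at 8.21, 21.0, 28.1, 80.6 and 35.3 CPM with vorinostat, against 0.401, 10.8, 4.43, 7.20 and 5.17 CPM with DMSO. At 14 days CLIP2 was at 51.0, 56.1, 31.2, 42.0 and 55.3 CPM with pracinostat and at 24.7, 66.3, 46.1, 45.0 and 198 CPM with vorinostat, against 0, 3.93, 20.0, 20.5 and 9.38 CPM in DMSOP and 0.157, 6.97, 15.0, 23.5 and 4.21 CPM in DMSOV. OCILY1 had at most 0.401 CPM in its DMSO libraries and WSUDLCL2 with vorinostat at 14 days stood far above the others, so the size of the difference varied by line although its direction did not.
MAPRE3, a microtubule end-binding protein of the EB family (chromosome 2, 26970612 to 27027196, plus strand), had a D6 of 2.74 ± 0.74 and a D14 of 2.15 ± 0.25 (SD, n = 5), the smallest SD of D14 among the 153. At 14 days MAPRE3 was at 10.2, 11.8, 14.0, 8.11 and 11.8 CPM with pracinostat and at 9.78, 14.5, 24.2, 12.3 and 17.5 CPM with vorinostat, against 1.87, 2.58, 5.16, 2.77 and 3.94 CPM in DMSOP and 1.57, 2.23, 3.65, 2.61 and 1.74 CPM in DMSOV. Every drug library was above every DMSO library at that time.
ENAH, which helps actin filaments grow (chromosome 1, 225486835 to 225653142, minus strand), had a D6 of 2.26 ± 0.95 and a D14 of 2.29 ± 2.18 (SD, n = 5). At 14 days ENAH was at 12.1, 14.5, 17.5, 85.0 and 26.3 CPM with pracinostat and at 7.79, 16.8, 13.7, 49.3 and 38.1 CPM with vorinostat, against 0, 3.56, 4.71, 91.1 and 1.97 CPM in DMSOP and 0.157, 7.94, 4.79, 108 and 1.02 CPM in DMSOV. TOLEDO held more ENAH with DMSO than any other line held with a drug, and there the 14 day drug libraries were lower than DMSO. In the other 4 lines they were higher.
In the 16 genes grouped by hand, after their values were known, under cytoskeleton and motors, D6 ran up to 4.30 and D14 up to 3.22. The group also holds the kinesin KIF5C (D6 2.10, D14 1.57), the motor MYO6 (2.06, 1.74), the lamin gene LMNA (2.25, 1.84) and the microtubule-associated protein MAP1A (2.32, 1.53).

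In transcription and chromatin the leading gene was ZNF385A, a zinc finger protein that binds p53 (chromosome 12, 54369133 to 54391298, minus strand), with a D6 of 3.57 ± 1.16 and a D14 of 2.50 ± 1.01 (SD, n = 5). At 6 h ZNF385A was at 27.2, 70.6, 67.9, 66.8 and 15.5 CPM with pracinostat and at 30.8, 82.5, 71.6, 45.2 and 37.8 CPM with vorinostat, against 0.668, 18.8, 9.19, 4.14 and 0.838 CPM with DMSO. At 14 days ZNF385A was at 28.9, 119, 134, 29.5 and 37.9 CPM with pracinostat and at 28.8, 117, 169.7, 30.9 and 53.1 CPM with vorinostat, against 2.36, 27.8, 29.6, 11.6 and 4.29 CPM in DMSOP and 1.73, 32.3, 24.2, 15.8 and 4.36 CPM in DMSOV. Every line was above its own DMSO with each drug, while levels in PFEIFFER and SUDHL4 with DMSO at 14 days reached those of OCILY1 with a drug.
KDM5B, a demethylase of lysine 4 of histone H3 (chromosome 1, 202724495 to 202809470, minus strand), had a D6 of 2.68 ± 1.34 and a D14 of 2.37 ± 1.94 (SD, n = 5). At 6 h KDM5B was at 36.6, 110.4, 3.84, 224 and 24.6 CPM with pracinostat and at 46.2, 146, 8.71, 264 and 38.3 CPM with vorinostat, against 2.67, 44.2, 0, 98.7 and 5.17 CPM with DMSO. At 14 days KDM5B was at 38.1, 149, 13.7, 206 and 55.3 CPM with pracinostat and at 36.1, 162, 16.1, 289 and 54.3 CPM with vorinostat, against 17.3, 87.3, 0.448, 149 and 5.10 CPM in DMSOP and 12.9, 87.9, 0.456, 136 and 0.581 CPM in DMSOV. TOLEDO and PFEIFFER expressed it strongly with DMSO and SUDHL4 hardly at all, and with the drugs TOLEDO and PFEIFFER were again highest and SUDHL4 lowest.
SMARCD3, a subunit of SWI/SNF chromatin remodellers (chromosome 7, 151238764 to 151277896, minus strand), had the later pattern of these 3, with a D6 of 1.30 ± 0.68 and a D14 of 2.51 ± 0.56 (SD, n = 5). At 14 days SMARCD3 was at 49.7, 32.2, 20.4, 11.9 and 14.7 CPM with pracinostat and at 20.9, 24.3, 18.1, 7.76 and 13.2 CPM with vorinostat, against 2.99, 6.13, 3.14, 1.38 and 3.36 CPM in DMSOP and 2.35, 6.55, 3.65, 1.47 and 2.76 CPM in DMSOV. Every drug library was above every DMSO library at that time. The 13 genes of this group included ATXN1, ETV5, KLF3, RARG, SATB1 and MLLT3, with D6 from 1.30 to 3.57 and D14 from 1.32 to 2.51.

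Among receptors, adhesion molecules and secreted proteins, GABBR1, a subunit of the GABA-B receptor (chromosome 6, 29555629 to 29633976, minus strand), had a D6 of 2.57 ± 0.62 and a D14 of 2.18 ± 0.71 (SD, n = 5). At 6 h GABBR1 was at 25.3, 18.3, 8.01, 25.0 and 7.21 CPM with pracinostat and at 27.4, 25.7, 10.2, 35.9 and 19.6 CPM with vorinostat, against 2.94, 3.98, 1.90, 7.36 and 0.838 CPM with DMSO. At 14 days GABBR1 was at 35.9, 36.2, 11.1, 40.7 and 28.1 CPM with pracinostat and at 40.3, 41.7, 14.0, 55.8 and 33.2 CPM with vorinostat, against 6.84, 8.46, 4.04, 17.0 and 3.24 CPM in DMSOP and 5.49, 9.48, 3.65, 17.6 and 2.90 CPM in DMSOV. Each line lay above its own DMSO with each drug at both times.
CCR7, the chemokine receptor that guides lymphocytes to lymph nodes (chromosome 17, 40553769 to 40565472, minus strand), had the largest gain between the times in the set, with a D6 of 1.76 ± 1.00 and a D14 of 3.33 ± 1.24 (SD, n = 5). At 6 h CCR7 was at 2.94, 20.5, 1.33, 295 and 1.91 CPM with pracinostat and at 1.88, 19.2, 3.00, 466 and 3.01 CPM with vorinostat, against 0, 15.5, 0.317, 91.7 and 0.698 CPM with DMSO. At 14 days CCR7 was at 13.0, 177, 2.48, 346 and 31.0 CPM with pracinostat and at 1.99, 363, 4.78, 823 and 73.4 CPM with vorinostat, against 0.124, 6.26, 0.673, 108 and 7.64 CPM in DMSOP and 0.471, 7.80, 0.456, 113 and 1.02 CPM in DMSOV. TOLEDO was highest throughout, and PFEIFFER was close to its DMSO at 6 h and far above it at 14 days.
LRP1, an endocytic receptor of lipoproteins, had a D6 of 2.10 and a D14 of 2.73, and LGALS1, the secreted lectin galectin-1, a D6 of 1.61 and a D14 of 2.52. CD1D, which presents lipids to natural killer T cells, had a D6 of 1.59 ± 1.76 and a D14 of 2.19 ± 2.10 (SD, n = 5). In TOLEDO, CD1D was at 21.5 CPM with pracinostat and 19.4 CPM with vorinostat at 6 h, against 35.7 CPM with DMSO, so its direction there was the opposite of its mean.

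SERPINB6, an intracellular inhibitor of serine proteases (chromosome 6, 2948159 to 2972165, minus strand), had a D6 of 2.42 ± 1.66 and a D14 of 2.89 ± 1.47 (SD, n = 5). At 6 h SERPINB6 was at 12.5, 34.3, 3.00, 1.29 and 17.8 CPM with pracinostat and at 12.0, 35.6, 1.35, 1.03 and 9.34 CPM with vorinostat, against 1.07, 28.7, 0, 0.307 and 0.279 CPM with DMSO. At 14 days SERPINB6 was at 27.5, 66.7, 6.27, 3.74 and 59.9 CPM with pracinostat and at 20.4, 66.3, 2.39, 1.44 and 103 CPM with vorinostat, against 0.871, 37.4, 1.12, 0 and 4.75 CPM in DMSOP and 1.26, 34.8, 0.456, 0 and 2.61 CPM in DMSOV. PFEIFFER held nearly as much with DMSO as with a drug at 6 h, and WSUDLCL2 with vorinostat at 14 days was the highest library.
SERPINI1, neuroserpin, had a D6 of 2.59 ± 1.18 and a D14 of 2.21 ± 1.14 (SD, n = 5), with OCILY1 and SUDHL4 highest in every treatment.

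Signalling genes were grouped by hand as kinases, phosphatases and their partners, or as small GTPase and G protein signalling. PRKCB, a protein kinase C that acts downstream of the B-cell receptor (chromosome 16, 23835946 to 24220611, plus strand), had a D6 of 1.79 ± 1.16 and a D14 of 3.22 ± 1.79 (SD, n = 5). At 14 days PRKCB was at 116, 315, 267, 242 and 85.3 CPM with pracinostat and at 89.4, 405, 423, 269 and 116 CPM with vorinostat, against 8.46, 7.11, 33.4, 155 and 8.69 CPM in DMSOP and 6.28, 10.0, 41.3, 241 and 9.30 CPM in DMSOV. TOLEDO was the exception, with pracinostat and vorinostat libraries close to its DMSOV library.
RHOC, a small G protein (chromosome 1, 112701106 to 112707434, minus strand), had a D6 of 2.13 ± 0.61 and a D14 of 2.49 ± 0.64 (SD, n = 5). At 14 days RHOC was at 36.4, 37.1, 11.1, 3.28 and 4.01 CPM with pracinostat and at 31.2, 45.5, 26.0, 7.94 and 12.0 CPM with vorinostat, against 6.10, 9.20, 1.12, 1.24 and 1.27 CPM in DMSOP and 7.85, 8.50, 1.60, 1.31 and 0.290 CPM in DMSOV. Each line was above its own DMSO with each drug.
FYN, a Src family kinase (D6 1.85, D14 1.91), and HIPK2, a kinase that can phosphorylate p53 (1.66, 2.32), were further members. HIPK2 had at most 1 count in any SUDHL4 library. In TOLEDO its difference averaged over drugs was 0.28 at 6 h and -0.46 at 14 days, against 2.01 and 3.02 as the mean of the other lines.

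Among 6 genes of p53, stress and cell death, TP53INP1, a p53 target linked to autophagy (D6 2.01, D14 2.45), and the sestrins SESN3 (1.93, 2.34) and SESN1 (1.89, 1.70), which restrain mTORC1, were higher than DMSO at both times in the mean.
BMF, a BH3-only protein that antagonises BCL2 relatives (chromosome 15, 40087890 to 40108892, minus strand), stood near the limit with a D6 of 1.26 ± 1.62 and a D14 of 1.86 ± 0.65 (SD, n = 5). At 6 h BMF was at 139.5, 26.2, 49.5, 103 and 90.6 CPM with pracinostat and at 171, 28.9, 88.9, 147 and 113 CPM with vorinostat, against 135, 5.76, 50.4, 9.50 and 112 CPM with DMSO. At 14 days BMF was at 269, 25.6, 189, 66.3 and 226 CPM with pracinostat and at 251, 44.2, 289, 73.3 and 147 CPM with vorinostat, against 123, 6.75, 52.7, 16.3 and 122 CPM in DMSOP and 104, 4.32, 38.3, 18.0 and 54.3 CPM in DMSOV. At 6 h the widest differences lay in PFEIFFER and TOLEDO, the lines with the lowest DMSO level, while with pracinostat OCILY1 and SUDHL4 were close to their DMSO and WSUDLCL2 was below it. At 14 days each line was higher with each drug.
MT2A had a D6 of 1.42 and a D14 of 2.09. In WSUDLCL2 it was at 16.1 CPM with pracinostat and 110.1 CPM with vorinostat at 6 h, against 18.6 CPM with DMSO, and at 3.34 CPM with pracinostat and 46.7 CPM with vorinostat at 14 days, against 0.695 CPM in DMSOP and 0.726 CPM in DMSOV. The vorinostat libraries of that line were thus the highest at each time, and its pracinostat library was below DMSO at 6 h.

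Channels and transporters included ATP7B, the copper-exporting ATPase of Wilson disease (chromosome 13, 51930436 to 52012125, minus strand), with a D6 of 3.13 ± 0.44 and a D14 of 1.47 ± 0.42 (SD, n = 5). At 6 h ATP7B was at 6.62, 21.3, 7.51, 16.0 and 6.15 CPM with pracinostat and at 11.6, 24.9, 4.96, 12.8 and 10.1 CPM with vorinostat, against 0.935, 2.88, 0.317, 1.84 and 0.279 CPM with DMSO. Every drug library was above every DMSO library of these lines at 6 h, while at 14 days the drug libraries of some lines were below the DMSO libraries of PFEIFFER. The 16 genes of this group had D6 from 1.26 to 3.13 and D14 up to 2.50.
SLFN5, of the Schlafen family (chromosome 17, 35243036 to 35273655, plus strand), was placed in no group and had a D6 of 2.67 ± 0.54 and a D14 of 2.90 ± 1.22 (SD, n = 5). At 14 days SLFN5 was at 12.4, 43.1, 4.37, 8.27 and 18.9 CPM with pracinostat and at 9.78, 45.5, 4.44, 6.86 and 20.9 CPM with vorinostat, against 2.74, 1.59, 0.224, 2.07 and 1.39 CPM in DMSOP and 3.92, 2.51, 0.228, 2.45 and 0.871 CPM in DMSOV. Each line was higher with each drug, SUDHL4 from DMSO levels at or under the floor.
The non-coding transcripts were MIAT, FER1L4, HCP5 and a pair known only by identifier, ENSG00000273151 and ENSG00000268027. MIAT, a long non-coding RNA (chromosome 22, 26646428 to 26676475, plus strand), had the largest D14 of the set, 3.41 ± 1.43, with a D6 of 2.26 ± 0.46 (SD, n = 5). It shares exon bases with another gene of the table on the same strand, so the division of reads between them is uncertain.

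Against lists of related genes, drawn up with earlier results of these data known, the set took a small part of each. Of 15 HDAC inhibitor response genes at the level, 8 reached the limit at 6 h and 6 at 14 days, and KDM5B, BMF and MT2A were members. Others reached it at 6 h alone: the apoptosome gene APAF1 had a D6 of 1.92 and a D14 of -0.45, and the cell cycle inhibitor CDKN2D 1.61 and -0.04. Of 33 tubulin and microtubule genes 6 reached it at 6 h, 5 did at 14 days and 4 were members (MAPRE3, KIF5C, CLIP2 and MAP1A); the list medians were 0.62 at 6 h and 0.00 at 14 days. TUBB2A, a beta tubulin, had a D6 of 2.74 and a D14 of 0.26, and TUBA1B, an alpha tubulin, had -0.15 and -1.61. Of 14 synaptic and neuronal genes 5 reached it at 6 h and 3 at 14 days, with KIF5C among the members. Of 24 adhesion and surface genes 3 reached it at 6 h and 7 at 14 days, with the tetraspanin CD151 and the adhesion molecule MCAM as members; ITGB2, the common chain of leukocyte integrins, had a D6 of 0.28 and a D14 of 2.35. Metallothioneins and zinc genes gave 1 member of 3 at the level (MT2A), Ras, Ral and Rap regulators 1 of 26 (RRAS), and Notch genes none of 6. The 6 CDK inhibitors gave none, since CDKN1A, which passed both limits and is also on the HDAC inhibitor response list, was set aside by name. Beside these stand 3.94% of all genes at the level that reached the limit at 6 h, 3.83% at 14 days and 1.51% at both times.

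Lines differed in how far the set stood above DMSO. The median over the 153 genes in OCILY1 was 2.27 with pracinostat and 2.46 with vorinostat at 6 h, the highest of the lines, and 2.25 with pracinostat and 1.98 with vorinostat at 14 days. WSUDLCL2 had 1.83 with pracinostat and 2.15 with vorinostat at 6 h, and 1.83 with pracinostat and 2.27 with vorinostat at 14 days. SUDHL4 had 1.39 with pracinostat and 1.56 with vorinostat at 6 h, and 1.54 with pracinostat and 1.81 with vorinostat at 14 days. In PFEIFFER every median lay between 1.49 and 1.55. TOLEDO had 1.83 with pracinostat and 1.84 with vorinostat at 6 h and 1.14 with each at 14 days, the lowest of the 5 lines at the later time with either drug. The drugs of a line share its DMSO libraries at each time, so the values of the drugs are not independent. The median of all 10187 genes lay between -0.16 and 0.07 in these 20 differences. A gene was above 0 in all 10 line and drug differences in 119 of the 153 at 6 h, against 16.5% of all genes at the level, and in 102 at 14 days, against 9.15%. In all 20 differences it was so in 85 members, against 2.9% of all genes, and these counts follow in part from the rule and are read no further. D14 was above D6 in 70 of the 153 (45.8%), a count not taken over all genes. The median of D14 minus D6 was -0.03 in members, against -0.09 over all genes at the level. The widest falls between the times in the set were those of CTTNBP2NL, ATP7B and MCAM, by 2.11, 1.66 and 1.37, and the widest gains were those of CCR7, PRKCB and SMARCD3, at 1.57, 1.43 and 1.20.

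**Figure D3:**
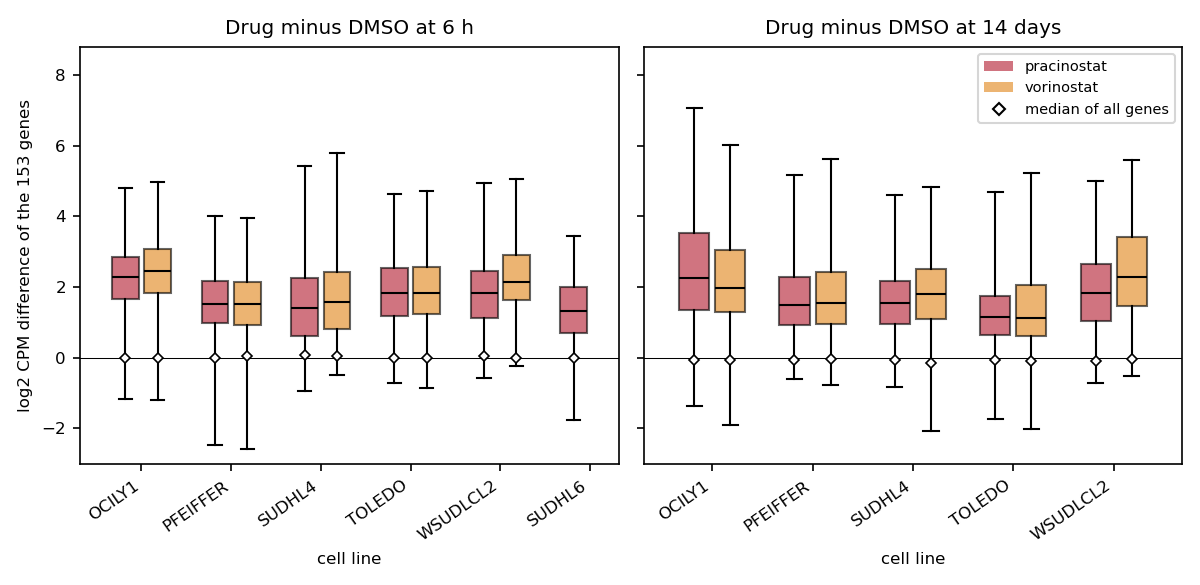
Log2 CPM differences of the 153 genes, drug minus DMSO, in each cell line at 6 h (left) and 14 days (right). Boxes show quartiles and median, whiskers the lowest and highest gene, red pracinostat, orange vorinostat, and diamonds the median of all 10187 genes, which stays near 0 while box medians run from 1.14 in TOLEDO at 14 days to 2.46 in OCILY1 with vorinostat at 6 h.

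The lines also differed with DMSO, and the rule did not use the spread between lines. Among genes with a mean DMSO level of 1 to 4 log2 CPM, the range over the 5 lines was at least 3 log2 units in 88 of 133 members (66.2%), against 945 of 2845 genes (33.2%). The median DMSO level was lower in these members, 1.94 against 3.01 log2 CPM, and lower counts alone widen such ranges; the part of that was not tested. The median SD over lines in these 133 genes was 1.13 log2 CPM with pracinostat and 1.17 with vorinostat at 6 h, against 1.57 with DMSO. At 14 days it was 0.96 with pracinostat and 1.01 with vorinostat, against 1.65 in DMSOP and 1.67 in DMSOV. Over the 2845 genes it was 0.78 with pracinostat and 0.74 with vorinostat at 6 h, against 0.85 with DMSO, and 0.75 with pracinostat and 0.79 with vorinostat at 14 days, against 0.88 in DMSOP and 0.85 in DMSOV. The choice of genes that are low with DMSO and higher with a drug, and the lower DMSO counts that come with it, fix part of the larger SD of the members with DMSO, so these values are a description with no test and nothing further is read from them.

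**Figure D4:**
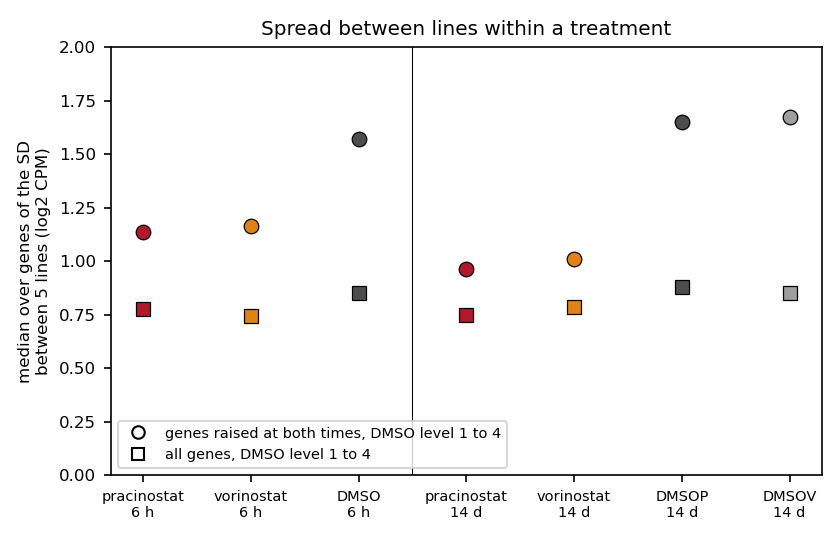
Median over genes of the SD between 5 cell lines (log2 CPM) in each treatment, for members (circles, 133 genes) and all genes (squares, 2845) with a DMSO level of 1 to 4 log2 CPM. Circles lie between 0.96 and 1.17 with the drugs and between 1.57 and 1.67 with DMSO, and squares between 0.74 and 0.88 throughout.

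In 14 members 1 line stood at least 3 log2 units above the next with DMSO, PFEIFFER in 7, TOLEDO in 6 and WSUDLCL2 in 1. That is 9.15% of the members, against 0.923% of all genes at the level, and within the DMSO range of 1 to 4 log2 CPM it was 9.02% of members against 2.78% of genes. These were CCDC110, HCP5, ENAH, SERPINB6, ELL2, ATP2B4, SMO, TMCC2, CD1D, CCR7, MCAM, CHST12, ETV5 and PALLD. In that line the drug minus DMSO difference, averaged over drugs, had a median of 0.62 at 6 h and 0.18 at 14 days, against 2.06 and 2.37 as the mean of the other 4 lines. It was smaller than in the other lines in 12 of the 14 genes at 6 h and in all 14 at 14 days. CCR7 was 1 of the 2 exceptions at 6 h, with 2.01 in TOLEDO and 1.69 elsewhere. The DMSO libraries enter both the choice of these genes and the difference, so this direction is fixed in part.

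SUDHL6, whose difference the rule did not use beyond the mean level, had 1 pracinostat and 1 DMSO library at 6 h, so nothing is tested there. The header of that DMSO library names DMSOV. Of the 153 genes 97 (63.4%) were at least 2-fold higher with pracinostat than with DMSO, against 5.64% of the 10187 genes. The median difference was 1.32 log2 CPM, against -0.00 over all genes, and 141 members (92.2%) were above 0, against 49.8% of all genes. Compared with pracinostat in the 5 other lines, SUDHL6 lay below the lowest line for 38 genes and above the highest for 5. The genes were chosen for high differences in those 5 lines, so this direction is fixed in part by the rule. The same counts were not taken over all genes, and nothing further is read from them. The largest differences were those of ETHE1, a mitochondrial sulfur dioxygenase, at 3.46, ENAH at 3.36, DACT3 at 3.14, SERPINI1 at 3.05 and ZNF385A at 3.04. ETHE1 had 11.6 CPM with pracinostat and 0.774 CPM with DMSO, and ENAH had 13.1 CPM with pracinostat and 0.995 CPM with DMSO. DACT3 had 23.9 CPM with pracinostat and 2.43 CPM with DMSO, both within the range of the 5 other lines, and ZNF385A had 37.8 CPM with pracinostat and 4.31 CPM with DMSO. BMF was at 307 CPM with pracinostat against 438 CPM with DMSO, a difference of -0.51, and had its highest DMSO level of all lines there. MAP1A was at 0.654 CPM with pracinostat, from 4 counts, against 2.98 CPM with DMSO, from 27 counts, while its drug minus DMSO differences at 6 h in the 5 other lines were 1.34 or more. CCR7 was at 5.56 CPM with pracinostat against 5.42 CPM with DMSO.

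**Figure D5:**
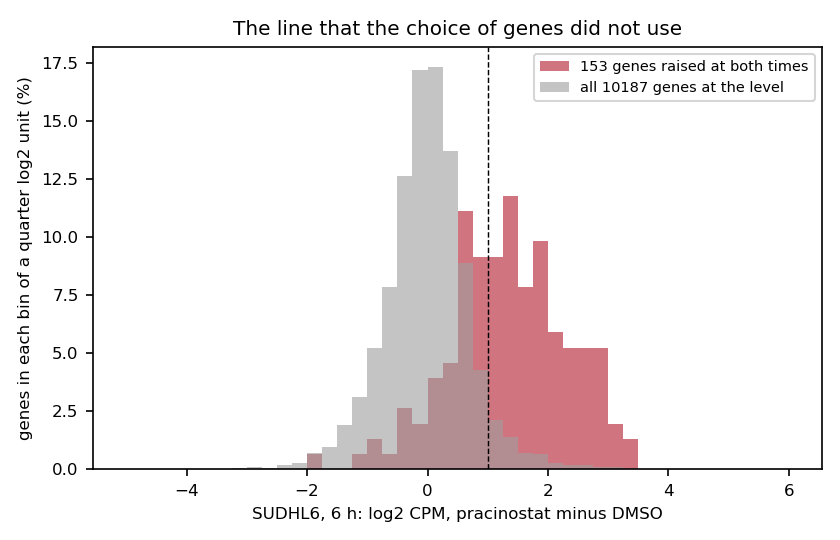
Distribution of the pracinostat minus DMSO difference (log2 CPM) in SUDHL6 at 6 h, as the percentage of genes in each bin, for the 153 members (red) and all 10187 genes at the level (grey). The dashed line marks a 2-fold difference, with 63.4% of members and 5.64% of all genes at or beyond it.

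The rule averaged over the drugs, so their difference could be tested. At 6 h edgeR's quasi-likelihood test with the line as block called 0 of the 153 members at an adjusted p under 0.05, against 0.0152% of 13177 genes tested (2 genes). At an unadjusted p under 0.05 it found 9 members (5.88%), against 9.21% of all genes, and DESeq2 called 0 members. The median member difference, pracinostat minus vorinostat, was -0.18, against 0.01 over all genes, and 41 members (26.8%) were above 0, against 52.3% of all genes. At 14 days 0 of 153 were called, against 0% of 14037 genes (0 genes), with 8 members (5.23%) and 9.13% of all genes at an unadjusted p under 0.05, and DESeq2 called 0 members. The median was -0.20, against 0.01, with 50 members (32.7%) above 0, against 51.2% of all genes. By line the 6 h median was -0.44 in WSUDLCL2 and between -0.21 and 0.03 in the other 4 lines, and at 14 days it was -0.51 in WSUDLCL2 and between -0.27 and 0.18 in the others. Without WSUDLCL2 the medians over members were -0.08 at both times.

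A call that misses the threshold does not show that the drugs act alike on these genes. The 95% interval of the difference had a median half-width of 0.63 at 6 h and lay within 1 log2 unit of 0 in 108 members; at 14 days the half-width was 0.86 and 48 members were so bounded. The lowest adjusted p over members was 0.339 at 6 h, for CALCOCO1, a nuclear receptor coactivator, with a difference of -0.73 (SE 0.20). TP53INP1 was at 242, 9.79, 105, 44.5 and 64.9 CPM with pracinostat and at 403, 18.5, 182, 50.7 and 107 CPM with vorinostat, against 84.8, 2.74, 83.0, 7.36 and 13.4 CPM with DMSO, a difference between the drugs of -0.73 (SE 0.25, adjusted p = 0.434 by edgeR), with vorinostat higher in every line. At 14 days DACT3 differed by -1.01 (SE 0.38, adjusted p = 0.491 by edgeR), lower with pracinostat than with vorinostat in every line, and SMARCD3 by 0.56 (SE 0.24, adjusted p = 0.524), higher with pracinostat in every line. Of the 9 and 8 members at an unadjusted p under 0.05, SMARCD3 was the only gene higher with pracinostat.

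The pair of 14 day DMSO sets gives a background for these values. DMSOP minus DMSOV called 0 of 153 members and 0% of 14037 genes (0 genes) by edgeR, and DESeq2 called 0 members. At an unadjusted p under 0.05 were 1 member, RTN2 (0.83, SE 0.32), and 0.591% of all genes. The median member difference was 0.06, against 0.01 over all genes, and 99 members (64.7%) were above 0, against 52.4% of all genes. Members thus lay more to 1 side than all genes between the solvent sets too. By line the median was 0.36 in WSUDLCL2 and between -0.03 and 0.03 in the other 4 lines.

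By position the 153 genes were spread over the genome, with 19 on chromosome 1 (12.4%, against 10.2% of all genes at the level). A pair of neighbours lay within 100 kb of each other on chromosome 11, CEND1 and CD151, 42719 bases apart, and another on chromosome 6, HCP5 and ATP6V1G2, 66955 bases apart. The median exonic length of the members was 6758 bases and the median gene span 48663 bases, against 5220 and 32328 bases over the 10187 genes. Exons of 33 members overlap those of another gene of the table, 5 on the same strand and 28 on the opposite one. The strand setting of the counting is not given in the sources used here, so reads of these pairs may not be told apart.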

How the data were processed

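RNA was harvested with Trizol and made into libraries with an Illumina TruSeq kit, per the labels' protocols. STAR, edgeR and hg38 are named, without versions, per the submitters' processing notes, while the sources used here give no annotation release or strand setting. The authors deposited raw counts per gene (whole numbers) for 37 libraries and 18011 genes, and a table of log2 CPM, used here as an alternative only. Of 38 listed samples, a further SUDHL4 vorinostat sample at 14 days could not be matched to a column and is not analysed here. No other column was left unused.

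From the raw counts, log2 CPM was computed with edgeR 4.0.16 in R 4.3.3, with trimmed mean of M-values (TMM) factors and a prior count of 2. Library CPM values carry the same factors and no prior. Pracinostat minus vorinostat at each time, and DMSOP minus DMSOV, were tested with edgeR's quasi-likelihood test, using filterByExpr (minimum count 10, minimum total 15), a robust fit of all libraries of that time and the cell line as block, since each line gave 1 library per treatment. Adjusted p-values are Benjamini-Hochberg over all genes tested, with a threshold of 0.05, and p-values measure the spread between these libraries. Alternatives used DESeq2 1.42.0 and limma 3.58.1. The code was tested on simulated data. Depth is given as library totals, and intervals are 95% ones. Symbols and positions came from GENCODE 29 on GRCh38, giving 151 of the 153 genes a symbol, and promoters from RefSeq.

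The members, gene lists and tests were chosen with earlier results of these data known. Genes named are a part of those a fixed rule takes: the 15 with the largest smaller one of D6 and D14, the 3 just inside and 3 just outside the limit, list members, the 5 largest and 5 smallest differences in SUDHL6, tested members, those that vary most over lines, the highest and lowest with DMSO, and neighbours. CCR7, PRKCB, LRP1, LGALS1, TP53INP1, the sestrins, FYN, HIPK2, ATP7B, SMARCD3, MIAT and the 14 genes with 1 outlying line were named after their values were seen. Some genes and lists are not reported here.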

Additional observations from a re-analysis of the deposited data

Results flagged for a closer look

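Within each group of 5 or 6 libraries, the gap of the highest or lowest library to its neighbour was set against the group's range (Dixon's ratio at 95%) for the leading members, the summed share of the set and the medians by line. Of 91 groups 23 held such a library. Chance gives about 5% for normally spread values, but most groups here were CPM of genes that differ many-fold between lines. That rate does not hold for them, and no excess over chance is read. The same line also recurs in several groups of 1 gene, so the groups are not independent.

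Most of them were libraries of TOLEDO or PFEIFFER that held ENAH, TBC1D16, SPECC1 or SERPINB6 far above the other lines, and none of these 4 genes was so in all 7 groups. ENAH was far above the other lines in TOLEDO, at 137 CPM with pracinostat and 143 CPM with vorinostat, against 85.5 CPM with DMSO, at 6 h. At 14 days it was at 85.0 CPM there with pracinostat, against 91.1 CPM in DMSOP and 108 CPM in DMSOV. TBC1D16, which acts on Rab proteins, was so in TOLEDO too, at 91.0 CPM with pracinostat, against 19.8 CPM with DMSO, at 6 h, and at 45.2 CPM in DMSOP and 39.8 CPM in DMSOV. SPECC1 stood apart in PFEIFFER at 41.4 CPM with pracinostat, against 13.9 CPM with DMSO, at 6 h, and at 18.4 CPM in DMSOP and 19.6 CPM in DMSOV. SERPINB6 stood apart in PFEIFFER in the DMSO libraries alone, at 28.7 CPM at 6 h, 37.4 CPM in DMSOP and 34.8 CPM in DMSOV.

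The other libraries stood apart in single groups. CLIP2 in WSUDLCL2 was at 198 CPM with vorinostat at 14 days, with the next line at 66.3 CPM. DACT3 was at 37.0 CPM in OCILY1 with vorinostat at 6 h, and at 9.60 CPM in PFEIFFER with DMSO at 6 h. SLFN5 was at 0 CPM in SUDHL4 with DMSO at 6 h, with the next line at 1.38 CPM. The set took 0.558% of counts in PFEIFFER with pracinostat at 14 days, with the next line at 0.467%. The median member difference of DMSOP minus DMSOV was 0.36 in WSUDLCL2, with the next line at 0.03.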

How the results depend on the processing

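Membership depended most on the limits: a limit of 1 for D6 and D14 gave 249 genes, a limit of 1.5 gave 84 and no minimum level gave 376, against 153. Leaving out a line gave 123 to 166 genes, of which 108 to 132 were among the 153, and other scalings, prior counts, single drugs and the deposited log2 CPM gave 130 to 173. Setting each drug against its own DMSO set gave the same 153, as the arithmetic requires. The smaller one of D6 and D14 for SLFN5 was 3.22 on the deposited log2 CPM, against 2.67; the cause was not tested.

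No member was called under any alternative for the 3 tested contrasts. Over all genes, pracinostat minus vorinostat at 6 h gave 50 calls with DESeq2 and 0 with no replicate block, and 0 to 0 when a line was left out, against 2. At 14 days it gave 15 with DESeq2 and 0 to 1 when a line was left out (1 without OCILY1), against 0. The cause was not tested. The replicate block is the cell line itself, so the libraries are paired by origin. In SUDHL6, 93 to 98 members were at least 2-fold higher under the alternatives, against 97. Low DMSO counts limit the precision of differences: a level of 0 allows up to 0.336 to 0.941 CPM. The comparison of CpG content at another threshold was not run, since the promoter table held 74.5% of the members.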
